A study of Rattus norvegicus with 18 samples.

Results

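The solute carrier (Slc) superfamily of membrane transporters was followed in rat liver after partial hepatectomy, with and without its nerve supply. A gene was counted as a member when the gene symbol of its probe set began with Slc followed by a family number, the letter a and a member number, with Slc10a1, Slc10a2 and Slc4a1 left out. Its signal also had to exceed 100 on at least 3 arrays, and a gene with several probe sets was represented by the one with the highest mean log2 signal. This gave 201 genes of the 254 that bore such a symbol, among 14022 genes with a single symbol on the array. The 53 others stayed below the signal minimum. Just inside it, the third highest signal was 101.0 for Slc24a4, 102.6 for Slc7a3 and 104.5 for Slc5a2, and just outside it 98.5 for Slc8a1, 97.6 for Slc9a5 and 96.3 for Slc36a3. The symbol alone also brought in 4 genes that are named after a transporter and are not carriers themselves, Slc4a1ap, Slc7a6os, Slc9a3r1 and Slc9a3r2.

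Livers of 12-week-old Sprague-Dawley rats were profiled on Affymetrix Rat Genome 230 2.0 arrays, 18 in all and 3 to a group, to ask how partial hepatectomy and the liver's nerves act on gene expression. The groups were total liver denervation with partial hepatectomy (TDPH), sympathectomy with partial hepatectomy (SPH), vagotomy with partial hepatectomy (VPH), partial hepatectomy alone (PH) and sham operation, all sampled at 2 h, and normal liver at 0 h. The right lobe was sampled in its middle part once the portal vein had been flushed to clear the blood, and no group had its nerves cut without hepatectomy. The arrays of a group are called technical replicates in the labels, so that an SD or p-value below speaks for array-to-array spread, n stands for arrays, and how many animals lie behind a group is not stated.

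Solute carriers move small molecules across the plasma membrane and the membranes of mitochondria, lysosomes and other organelles, either down a gradient or coupled to sodium, protons or a counter-substrate. In hepatocytes they bring in amino acids, citrate, organic ions and fatty acids, pass glucose in both directions, and feed the urea cycle and energy metabolism through the mitochondrial carriers of family 25. Early after hepatectomy the remnant liver faces the whole portal flow of amino acids and hormones and prepares for growth while it keeps up blood glucose.

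The members were grouped by family number, and each group is called by the main substrates of its families. There were 36 members of amino acid transporter families, 32 mitochondrial carriers, 28 members of inorganic ion families, 26 of metal ion families, 15 of sugar transporter families, 12 of the organic ion and drug family, 11 of nucleoside and nucleotide sugar families, 9 of carboxylate families and 8 of fatty acid and choline families. A further 20 belonged to families of vitamin, vesicular and other carriers, beside the 4 genes named after a transporter. Some members carry something other than their group's name says, such as Slc5a5 (iodide), Slc5a6 (biotin and pantothenate) and Slc5a3 (inositol) among the sugar families, Slc6a3 (dopamine) and Slc6a8 (creatine) among the amino acid families and Slc16a10 (aromatic amino acids) among the carboxylate families. All 201 passed the filter of the test on dim probe sets, which kept 22103 probe sets. Differences below are differences between group means of log2(signal + 12), first named group minus second, from limma with Benjamini-Hochberg adjustment over all 22103 probe sets. The added 12 makes the difference of a dim gene smaller than its ratio of signals. A member is said to have risen or fallen where its adjusted p was under 0.05 and its difference at least 2-fold (1 on the log2 scale).

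Every array had been scaled to a trimmed mean signal of 500, and the median signal of an array ran between 135.5 and 146.3 in TDPH, 124.8 and 140.2 in SPH, 130.5 and 134.6 in VPH, 114.9 and 129.4 in PH, 135.0 and 143.7 in sham and 143.5 and 150.9 in normal liver. Centring the arrays on their medians therefore shifts all genes, in PH against sham by turning the median of all probe sets to 0.04, against -0.11 as deposited, and in TDPH against PH to -0.06, against 0.11. The SPH arrays spread most, with a median SD of the members' log2 signal of 0.195, against 0.139 in TDPH, 0.125 in VPH, 0.147 in PH, 0.143 in sham and 0.129 in normal liver. VPH replicates 2 and 3 correlated at 0.9803, more closely than either did with VPH replicate 1 (0.9575 and 0.9578). All 6 hepatocyte markers, albumin among them, were bright on every array, with summed signals of 210041 to 222864 in TDPH, 262607 to 284997 in SPH, 221429 to 237786 in VPH, 219786 to 236719 in PH, 210708 to 221836 in sham and 187185 to 192445 in normal liver.

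Markers of other cells differed between the groups, and their part in the members' differences was not tested. Fewer cells of a type and less RNA per cell cannot be told apart in tissue RNA. Of the 6 neutrophil markers listed, the 3 measured (S100a8, S100a9 and Mmp8) summed to 4779 to 5576 in TDPH, 19358 to 40658 in SPH, 14098 to 14486 in VPH, 11534 to 12161 in PH, 1739 to 1968 in sham and 2122 to 2164 in normal liver. The 5 measured lymphocyte markers summed to 1324 to 1453 in TDPH, 1729 to 1947 in SPH, 2048 to 2109 in VPH, 1006 to 1226 in PH, 673 to 760 in sham and 2115 to 2319 in normal liver. The 4 measured Kupffer cell and macrophage markers summed to 12523 to 13256 in TDPH, 13517 to 16937 in SPH, 19104 to 19971 in VPH, 12722 to 13445 in PH, 12334 to 13014 in sham and 13936 to 14538 in normal liver. The 5 pancreas markers summed to 1647 to 1905 in TDPH, 713 to 1179 in SPH, 1538 to 1698 in VPH, 1206 to 1376 in PH, 951 to 1131 in sham and 2909 to 3635 in normal liver. They did not move together: in VPH against PH, Cpa1 (2.22) and Cpb1 (1.53) rose while Cela1 fell (-1.27). The 2 red cell markers, haemoglobin beta among them, summed to 8983 to 10279 in TDPH, 12782 to 26749 in SPH, 14235 to 14960 in VPH, 12388 to 12853 in PH, 14496 to 15018 in sham and 4267 to 4792 in normal liver. The 6 endothelial markers summed to 5704 to 6178 in TDPH, 4758 to 7127 in SPH, 5535 to 5879 in VPH, 5992 to 6341 in PH, 4017 to 4270 in sham and 5885 to 5945 in normal liver. The 6 stellate cell and fibroblast markers summed to 1451 to 1698 in TDPH, 2438 to 2871 in SPH, 1963 to 2120 in VPH, 2243 to 2434 in PH, 1225 to 1523 in sham and 1914 to 2040 in normal liver. None of the measured markers of these lists was at 0. SPH replicate 2 held the highest red cell sum and SPH replicate 1 the highest Mmp8 signal.

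Few members changed at least 2-fold in any comparison. In PH against sham, 6 of 201 members changed (2.99%), 3 up and 3 down, against 4.36% of all probe sets. In sham against normal liver 7 members changed (3.48%), 5 up and 2 down, against 3.02% of all probe sets. Adding a nerve cut to hepatectomy changed 2 members in SPH against PH (0.995%, both up, against 1.48% of all), 2 in VPH against PH (0.995%, 1 up and 1 down, against 1.80% of all) and none in TDPH against PH (against 1.65% of all). By limma, the only tool run, 37 members had an adjusted p under 0.05 in that last comparison, 55 an unadjusted p under 0.05, and 2 of these 55 also differed 2-fold. Between nerve cuts, 7 members changed in SPH against VPH (3.48%, against 2.77% of all), 4 in TDPH against SPH (1.99%, against 1.66%) and 4 in TDPH against VPH (1.99%, against 2.82%). The members' shares thus lay near the background, and the results are about single transporters.

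Smaller shifts were commoner. At an adjusted p under 0.05 and any size, 49 members differed in PH against sham (24.4%, against 22.4% of all probe sets), 54 in sham against normal (26.9%, against 16.8%), 44 in SPH against PH (21.9%, against 14.2%), 31 in VPH against PH (15.4%, against 12.0%) and 37 in TDPH against PH (18.4%, against 17.8%). Members had to pass a signal minimum and were each their gene's brightest probe set, while all probe sets include dimmer ones. The shares here and in the family groups below are therefore not matched for signal, whose part was not tested. The direction of the members' shifts depended in part on scaling. In PH against sham 26 were higher and 23 lower as deposited, but 40 higher and 11 lower with centred arrays. In TDPH against PH 19 were higher and 18 lower, but 6 higher and 34 lower with centred arrays. The split was 34 higher and 20 lower in sham against normal (43 and 13 centred), 33 and 11 in SPH against PH (24 and 15 centred), and 10 and 21 in VPH against PH (7 and 33 centred). The median member difference was -0.04 in PH against sham, 0.02 in sham against normal, 0.10 in SPH against PH, 0.00 in VPH against PH and 0.05 in TDPH against PH, where the median of all probe sets was -0.11, -0.03, 0.03, 0.05 and 0.11. Arrays of 2 groups often did not overlap. In PH against sham this held for 37.8% of members and 37.8% of all probe sets, and in sham against normal for 43.3% and 35.2%. Against PH it held for 33.3% and 25.5% in SPH, 40.8% and 31.6% in VPH and 37.3% and 33.9% in TDPH. Between cuts it held for 40.8% and 32.8% in SPH against VPH, 30.8% and 26.6% in TDPH against SPH and 42.3% and 39.2% in TDPH against VPH.

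**Figure D1:**
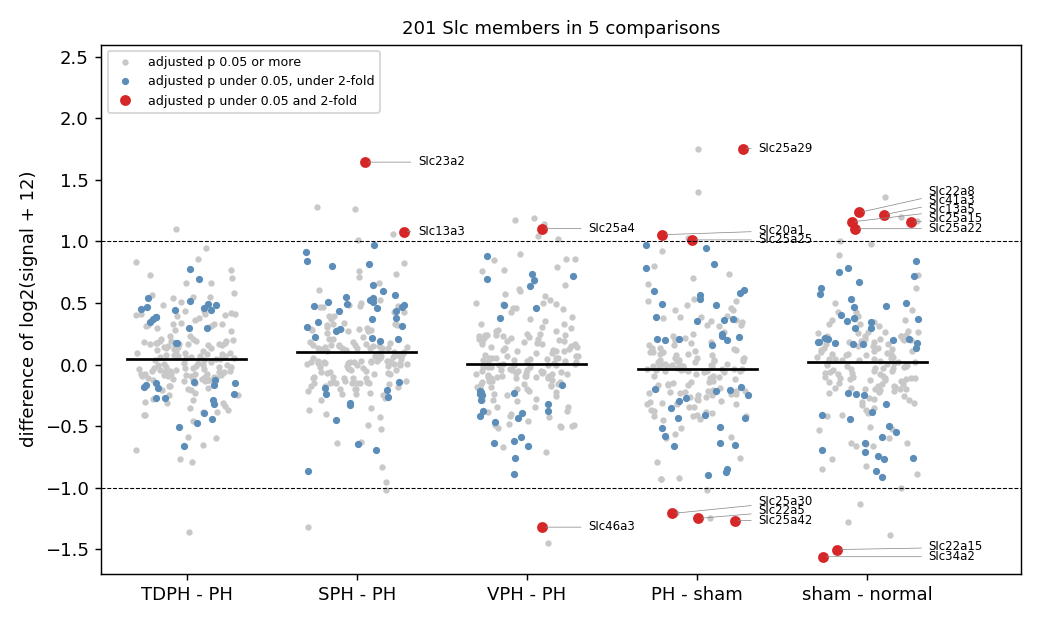
Difference of log2(signal + 12) for each of the 201 members (points, spread sideways for legibility) in 5 comparisons, with the members' median as a black bar and 2-fold as dashed lines. The named red points are the members that passed both the adjusted p and the 2-fold size, 6 of them in PH against sham, 7 in sham against normal, 2 in SPH against PH, 2 in VPH against PH and none in TDPH against PH.

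**Figure D2:**
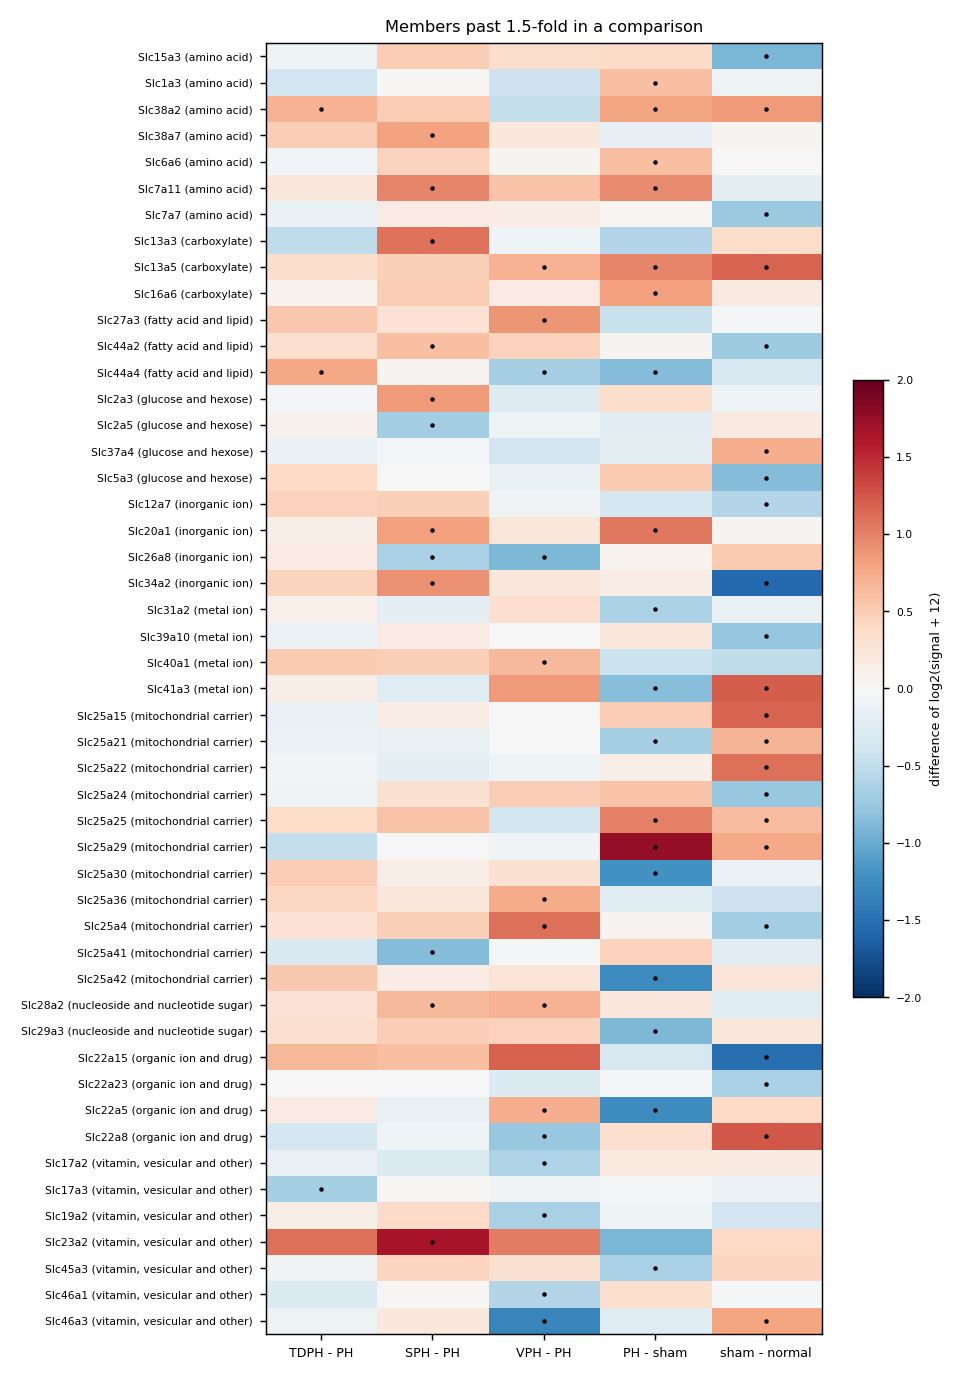
Difference of log2(signal + 12) in 5 comparisons for the 49 members with an adjusted p under 0.05 and at least 1.5-fold in any of them, ordered by family group, red for higher and blue for lower in the first named group. A dot marks each difference that met both conditions, and Slc38a2, Slc13a5 and Slc44a4 each have 3 such dots.

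Mitochondrial carriers supplied 4 of the 6 members that changed after hepatectomy, and they moved in both directions. These 4 were 12.5% of the 32 mitochondrial carriers, against 4.36% of all probe sets. Slc25a29, which carries arginine, lysine and ornithine into mitochondria, rose, as did Slc25a25, a calcium-regulated carrier that exchanges ATP-magnesium for phosphate. Slc25a42, a carrier of coenzyme A, and Slc25a30, a relative of the uncoupling proteins, fell. Of all 32 mitochondrial carriers, 6 were higher and 6 lower in PH than in sham at an adjusted p under 0.05 (9 and 4 with centred arrays, 4 and 7 after quantile normalization), with a median difference of -0.02. As deposited the share at that adjusted p was 37.5%, against 22.4% of all probe sets.

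Slc25a29 signals were 1916, 2017 and 1950.5 on TDPH arrays, 2495, 2806 and 2849 on SPH arrays and 2699, 2564 and 2510.5 on VPH arrays. They were 2605, 2849.9 and 2743 on PH arrays, against 877, 710 and 824 on sham arrays, and 495, 424 and 497 on normal arrays. Every array of the 4 hepatectomised groups lay above every sham array, and every sham array above every normal array. The mean was 2732 ± 123 in PH and 803 ± 85.2 in sham (SD, n = 3 arrays each), a difference of 1.75 ± 0.08 (SE; adjusted p = 3.22e-12), the highest of the 3 members that rose in this comparison. Sham against normal liver differed by 0.75 ± 0.08 (SE; adjusted p = 1.00e-06), and TDPH against PH by -0.47 ± 0.08 (SE; adjusted p = 0.000308), while the VPH and SPH arrays overlapped those of PH.

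Slc25a25 followed another order across the groups. Its signals were 9901, 10108 and 9966 on TDPH arrays, 12109, 10467 and 11790.5 on SPH arrays and 5980.5, 5954 and 5917 on VPH arrays. They were 7596, 7869 and 7691 on PH arrays, against 3719, 3986 and 3755 on sham arrays, and 2419, 2522 and 2478 on normal arrays. No 2 of the 6 groups overlapped: the SPH arrays were highest, followed by TDPH, PH, VPH, sham and normal. The rise in PH over sham was 1.01 ± 0.05 (SE; adjusted p = 6.51e-12), just past 2-fold, and it came to 0.99 when sham replicate 1 or PH replicate 2 was left out and to 0.90 after quantile normalization. Against PH, Slc25a25 differed by 0.57 ± 0.05 (SE; adjusted p = 3.50e-07) in SPH, 0.37 ± 0.05 (SE; adjusted p = 2.38e-05) in TDPH and -0.38 ± 0.05 (SE; adjusted p = 2.74e-05) in VPH. SPH against VPH differed by 0.94 (adjusted p = 1.58e-10) and TDPH against VPH by 0.75 (adjusted p = 2.45e-09), each below 2-fold.

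The 2 carriers that fell had low signals in all 4 hepatectomised groups. Slc25a42 signals were 372, 458 and 412 on PH arrays, against 948, 1039 and 1048 on sham arrays, a difference of -1.27 ± 0.11 (SE; adjusted p = 7.30e-08). Slc25a30 signals were 409, 407 and 349 on PH arrays, against 889.5, 848 and 1009.5 on sham arrays, a difference of -1.21 ± 0.11 (SE; adjusted p = 4.81e-08). PH and sham arrays did not overlap for either gene, and a further Slc25a30 probe set gave -1.24. With total denervation both were higher than in PH alone, by 0.54 (adjusted p = 0.0022) for Slc25a42 and 0.49 (adjusted p = 0.00273) for Slc25a30, though their TDPH arrays (545 to 664 and 488 to 596) stayed below every sham array (948 to 1048 and 848 to 1009.5).

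The sham operation was followed by a rise of 2 carriers of the urea cycle and glutamate metabolism. Slc25a15, which exchanges ornithine for citrulline across the inner membrane, had signals of 12059, 12015 and 11822 on sham arrays, against 5478, 5165 and 5439 on normal arrays, a difference of 1.16 ± 0.05 (SE; adjusted p = 7.21e-13). A further Slc25a15 probe set gave 1.13. Slc25a22, a glutamate carrier, had 7297, 6835 and 6615 on sham arrays, against 3290.2, 3106 and 3233 on normal arrays, a difference of 1.10 ± 0.07 (SE; adjusted p = 4.02e-10). Sham and normal arrays lay far apart for both. Hepatectomy went with a further 0.49 (adjusted p = 2.61e-07) for Slc25a15, with signals of 16511 to 16989.8 in PH, and with 0.12 (adjusted p = 0.237) for Slc25a22. Among the 32 mitochondrial carriers 11 were higher and 2 lower in sham than in normal liver at an adjusted p under 0.05 (14 and 2 centred, 9 and 2 by quantiles), with a median difference of 0.10. As deposited their share was 40.6%, against 16.8% of all probe sets.

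Slc25a20, the carnitine-acylcarnitine carrier that admits fatty acids to mitochondrial oxidation, differed by less than 2-fold. Its signals were 2338, 2544 and 2364 on TDPH arrays, 2769.5, 2693 and 2879 on SPH arrays and 3143, 3200.5 and 3183 on VPH arrays, against 3372, 3333 and 3139 on PH arrays, 3397, 3470.4 and 3347 on sham arrays and 2676, 2550.1 and 2607 on normal arrays. TDPH arrays were the lowest of the 2 h groups, with a difference from PH of -0.44 ± 0.05 (SE; adjusted p = 4.27e-06). Sham stood above normal liver by 0.38 (adjusted p = 1.12e-05), and PH and sham overlapped.

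Slc25a4, an exchanger of ADP and ATP that is the main form in heart and muscle, was the member that rose in VPH over PH. Its signals were 587, 529 and 580.4 on VPH arrays, against 285, 277 and 213 on PH arrays, a difference of 1.10 ± 0.16 (SE; adjusted p = 8.51e-05). The VPH arrays stood above every array of the other groups, including normal liver (354 to 447). The difference was 0.98 without PH replicate 3, which had the lowest signal, and it lost its call there.

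**Figure D3:**
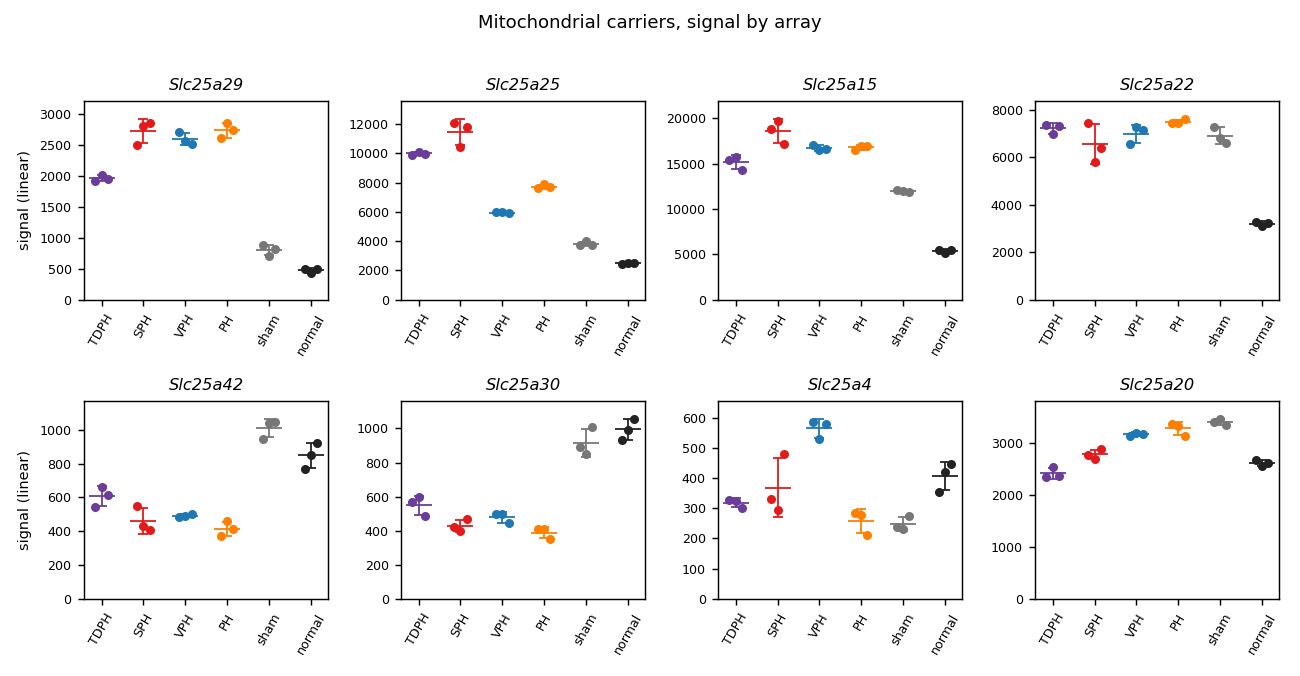
Signal (linear scale) of 8 mitochondrial carriers on each array (points), with the group mean as a bar and the SD of 3 arrays as whiskers, in TDPH, SPH, VPH, PH, sham and normal liver from left to right. Slc25a29 and Slc25a25 are high and Slc25a42 and Slc25a30 low in all 4 hepatectomised groups against sham, whereas Slc25a15 and Slc25a22 already separate sham from normal liver.

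The sodium-coupled neutral amino acid transporter Slc38a2 (SNAT2) had ordered steps across all groups. It is the system A carrier that hormones and amino acid shortage are known to induce. How many other probe sets separate all 6 groups was not counted. Slc38a2 signals were 12058, 11956 and 11596 on TDPH arrays, 10013, 11041 and 10279.9 on SPH arrays and 5173, 5302 and 5412 on VPH arrays. They were 7025, 7348 and 7667 on PH arrays, against 4201, 4469 and 4109 on sham arrays, and 2442, 2371 and 2287 on normal arrays. The 6 groups did not overlap anywhere. From low to high they ran normal, sham, VPH, PH, SPH and TDPH.

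Each step of Slc38a2 was below 2-fold when taken alone. Sham against normal differed by 0.84 ± 0.05 (SE; adjusted p = 1.58e-10) and PH against sham by 0.79 ± 0.05 (SE; adjusted p = 3.20e-10). Against PH, TDPH differed by 0.69 ± 0.05 (SE; adjusted p = 1.99e-08), SPH by 0.51 ± 0.05 (SE; adjusted p = 1.20e-06) and VPH by -0.47 ± 0.05 (SE; adjusted p = 1.71e-06). Between the cuts, Slc38a2 rose in TDPH over VPH by 1.16 ± 0.05 (SE; adjusted p = 4.38e-12), a call kept without any 1 array. SPH against VPH came to 0.98 ± 0.05 (SE; adjusted p = 9.21e-11), just under 2-fold, and TDPH against SPH to 0.18 ± 0.05 (SE; adjusted p = 0.014). Slc38a2 and Slc25a25 thus had their 4 lowest groups in the same order, and SPH and TDPH above them.

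The promoters of these 2 members and of Slc25a29 are shown because the 3 genes were higher in PH than in sham but differed after the nerve cuts. Each sequence is the window of 250 bases before and 50 after the gene's start, 5′ to 3′ on the gene's own strand, from RefSeq on build GRCr8, where all 3 genes are on the minus strand. Capitals mark TGACGTCA, the palindromic cAMP response element. Slc25a25 lies at chr3:36116532-36116831, Slc38a2 at chr7:129742570-129742869 and Slc25a29 at chr6:133517148-133517447.
Slc25a25: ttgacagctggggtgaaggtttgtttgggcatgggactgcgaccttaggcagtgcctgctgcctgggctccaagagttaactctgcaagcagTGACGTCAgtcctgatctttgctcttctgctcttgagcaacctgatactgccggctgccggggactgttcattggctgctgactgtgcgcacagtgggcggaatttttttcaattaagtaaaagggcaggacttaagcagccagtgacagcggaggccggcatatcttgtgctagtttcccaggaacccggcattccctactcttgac
Slc38a2: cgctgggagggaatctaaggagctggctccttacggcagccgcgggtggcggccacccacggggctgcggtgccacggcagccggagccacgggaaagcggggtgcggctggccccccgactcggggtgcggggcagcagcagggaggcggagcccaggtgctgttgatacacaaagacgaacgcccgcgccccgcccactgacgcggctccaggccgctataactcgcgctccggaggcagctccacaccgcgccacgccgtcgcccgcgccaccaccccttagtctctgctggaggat
Slc25a29: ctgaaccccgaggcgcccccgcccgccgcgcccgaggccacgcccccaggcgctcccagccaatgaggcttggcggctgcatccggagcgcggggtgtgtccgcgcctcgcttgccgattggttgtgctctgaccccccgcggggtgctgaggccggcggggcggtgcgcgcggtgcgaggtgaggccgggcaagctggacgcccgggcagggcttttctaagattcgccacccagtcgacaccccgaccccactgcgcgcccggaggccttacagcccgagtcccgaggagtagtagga
The Slc25a25 window held 1 match, starting 158 bases before the gene's start, and the other 2 windows held none. Of 33469 promoter windows in the table, 1.83% held this motif. Of the 168 members with a window, 5 held it, namely Slc18a2, Slc25a25, Slc38a6, Slc45a1 and Slc46a1. A match is a run of letters and was not tested as a site.

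None of the 36 amino acid transporters, Slc38a2 included, was called in a comparison with PH, sham or normal liver. The cystine and glutamate exchanger Slc7a11 had signals of 313, 364 and 451 on SPH arrays, against 199.5, 173 and 181 on PH arrays, and 55.5, 153 and 82.5 on sham arrays. SPH and PH arrays were apart, and so were PH and sham, although sham replicate 2 came close. The differences were 0.97 ± 0.25 (SE; adjusted p = 0.0105) for SPH against PH and 0.95 ± 0.25 (SE; adjusted p = 0.0081) for PH against sham. The difference between PH and sham passed 2-fold when arrays were centred (1.10) or quantile normalised (1.13). Its partner Slc3a2, the heavy chain that brings several exchangers to the membrane, had 2930.1, 3214 and 2855 on PH arrays, against 2261, 2270 and 2454 on sham arrays, a difference of 0.36 ± 0.07 (SE; adjusted p = 0.000385).

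Slc38a4, a system A carrier typical of liver, had signals of 22631 to 23750 in PH, against 19159 to 20049 in sham, and 16082 to 17116 in normal liver. The groups did not overlap, but the differences were small, 0.25 (adjusted p = 0.000406) for PH against sham and 0.22 (adjusted p = 0.00163) for sham against normal. The cationic amino acid transporter Slc7a2, the arginine carrier of hepatocytes, had 377, 339.9 and 412 on TDPH arrays, 353, 428 and 476 on SPH arrays and 319, 194 and 222 on VPH arrays, against 328, 289 and 274 on PH arrays. None of the 3 cuts differed from PH at an adjusted p under 0.05, while SPH differed from VPH by 0.77 ± 0.18 (SE; adjusted p = 0.00415). Slc7a1, the widespread cationic carrier, was dim and scattered, at 148 to 180.1 in PH, against 162 to 236 in sham, with a difference of -0.21 (adjusted p = 0.693).

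Across all 36 amino acid transporters, 7 were higher and 1 lower in PH than in sham at an adjusted p under 0.05 (10 and 0 centred, 8 and 0 by quantiles). In SPH against PH 7 were higher and none lower (4 and 1 centred), and in VPH against PH none were higher and 1 lower. The shares were 22.2% in PH against sham (22.4% of all probe sets) and 19.4% in SPH against PH (14.2% of all). In VPH against PH the share was 2.78% (12% of all). Of members chosen here after their values were seen, the taurine transporter Slc6a6 had 949.9, 1124 and 1022 on SPH arrays and 716, 846 and 671 on PH arrays, against 449, 491 and 511 on sham arrays, with 0.61 (adjusted p = 0.000794) for PH against sham and 0.47 (adjusted p = 0.0103) for SPH against PH. The cationic exchanger subunit Slc7a7 had 362, 341 and 416 on sham arrays, against 687, 585 and 617 on normal arrays, a difference of -0.74 (adjusted p = 0.000604). The lysosomal histidine and peptide transporter Slc15a3, found in immune cells, differed by -0.92 (adjusted p = 6.34e-05) in the same comparison. The summed lymphocyte markers were lower in sham as well (673 to 760, against 2115 to 2319 in normal liver), and their part in this was not tested.

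In direct comparisons of the cuts, 2 neural amino acid transporters passed the test at dim signals. Slc7a10, a small neutral amino acid exchanger, had 91.3, 96.7 and 111 on TDPH arrays, 49.9, 18.8 and 5.5 on SPH arrays and 80.3, 127 and 82.3 on VPH arrays. Slc6a7, a proline transporter, had 243, 205 and 219.9 on TDPH arrays, 119, 29.8 and 84.2 on SPH arrays and 242, 237 and 187 on VPH arrays. The SPH arrays were the lowest of the 3 cuts for both. The differences were 1.79 ± 0.53 (SE; adjusted p = 0.0282) for TDPH against SPH and -1.73 ± 0.53 (SE; adjusted p = 0.0269) for SPH against VPH in Slc7a10, and 1.53 ± 0.46 (SE; adjusted p = 0.0283) and -1.52 ± 0.46 (SE; adjusted p = 0.0227) in Slc6a7. Leaving out 1 array ended these calls in 5 of 6 and 4 of 6 cases for Slc7a10 and in 4 of 6 and 3 of 6 cases for Slc6a7.

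Among the 15 members of the sugar transporter families, the hepatocyte's own glucose carriers were higher in sham than in normal liver, by less than 2-fold. Slc2a2 (GLUT2), the bidirectional glucose carrier of hepatocytes, had signals of 18127, 17708 and 17949.8 on VPH arrays, against 22222, 23122 and 21928 on PH arrays. It had 15742, 16665 and 15826 on sham arrays, against 11292, 11181 and 11665 on normal arrays. PH, VPH, sham and normal arrays formed 4 separate steps. The differences were 0.48 ± 0.04 (SE; adjusted p = 7.69e-09) for PH against sham, 0.50 ± 0.04 (SE; adjusted p = 5.45e-09) for sham against normal and -0.32 ± 0.04 (SE; adjusted p = 5.97e-06) for VPH against PH. SPH arrays (22047 to 23212) overlapped those of PH, and TDPH (20419.7 to 20538) stood at -0.13 (adjusted p = 0.0192) from PH, or at 0.02 after quantile normalization.

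Slc37a4, which carries glucose 6-phosphate into the endoplasmic reticulum for the last step of glucose output, was highest in sham. Its signals were 6142, 6086 and 5996 on VPH arrays, against 7912, 7733 and 8087 on PH arrays. They were 8787, 9060.4 and 9070.3 on sham arrays, against 5576, 5468 and 5264 on normal arrays. Sham and normal differed by 0.72 ± 0.05 (SE; adjusted p = 6.70e-10), and PH and sham by -0.18 (adjusted p = 0.00701). VPH against PH differed by -0.38 ± 0.05 (SE; adjusted p = 1.16e-05), and TDPH against PH by -0.14 (adjusted p = 0.0414) as deposited and 0.01 after quantile normalization.

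Slc2a3 (GLUT3), a glucose carrier of neurons and leukocytes, was raised in SPH over VPH. Its signals were 412, 316 and 222 on SPH arrays, against 170.2, 136 and 111 on VPH arrays and 161, 178 and 159 on PH arrays. Every SPH array was above every VPH and PH array. The differences were 1.10 ± 0.24 (SE; adjusted p = 0.00243) against VPH, a call lost without SPH replicate 1 or VPH replicate 3 (0.89 at the lowest), and 0.84 ± 0.24 (SE; adjusted p = 0.0206) against PH. A further Slc2a3 probe set gave 1.69 for SPH against PH. The neutrophil marker sum was also highest in SPH (19358 to 40658, against 14098 to 14486 in VPH), and its part was not tested. Slc2a6, a glucose carrier of spleen and leukocytes named here after its values were seen, differed by -2.10 ± 0.63 (SE; adjusted p = 0.0293) in TDPH against SPH, but its arrays overlapped, with 14.1, 110.5 and 11.6 on TDPH arrays, against 89.3, 241 and 219 on SPH arrays. Its signal exceeded 100 on only 4 arrays, SPH replicates 2 and 3 among them. Without the SPH arrays Slc2a6 would have missed the minimum of 3 arrays and not been a member.

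Among inorganic ion transporters, 2 phosphate carriers were called, in different comparisons. Slc20a1 (PiT-1), a sodium-phosphate carrier of most cells, had signals of 1604, 1662 and 1876 on TDPH arrays, 2497, 3026 and 2825 on SPH arrays and 1825, 1829.5 and 1893 on VPH arrays. It had 1659, 1536 and 1523 on PH arrays, against 849, 764 and 650.4 on sham arrays, and 698, 709 and 748 on normal arrays. All hepatectomised groups lay above sham and normal liver, which overlapped, and SPH lay above the rest. Slc20a1 rose in PH over sham by 1.05 ± 0.09 (SE; adjusted p = 2.94e-08), a call lost without sham replicate 3 (0.95). SPH against PH differed by 0.81 ± 0.09 (SE; adjusted p = 4.55e-06) and SPH against VPH by 0.58 (adjusted p = 9.23e-05).

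Slc34a2 (NaPi-IIb), a phosphate carrier of epithelia such as bile ducts, fell in sham against normal liver. Its signals were 2479, 1529 and 1526 on SPH arrays and 882, 933 and 1029 on PH arrays. They were 846, 793 and 908 on sham arrays, against 2590.3, 2658 and 2342 on normal arrays. Normal liver was far above sham, with a difference of -1.56 ± 0.13 (SE; adjusted p = 4.44e-08), the deepest fall of any member in that comparison. SPH stood above PH by 0.92 ± 0.13 (SE; adjusted p = 9.82e-05), with SPH replicate 1 well above the other two. The same array had the highest signal of the bile duct marker Epcam, and the 6 summed bile duct markers were 1209 to 1367 in TDPH, 1121 to 2753 in SPH, 944 to 1055 in VPH, 1273 to 1417 in PH, 989 to 1143 in sham and 1299 to 1348 in normal liver. Only 2 of these 6 markers, Epcam and Krt19, passed the filter on dim probe sets, and Epcam supplied most of each sum. Their part was not tested.

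Slc26a8, an anion exchanger known from sperm, had 456, 512 and 463 on TDPH arrays, 269.5, 276 and 257 on SPH arrays and 224, 211 and 235 on VPH arrays, against 461, 392 and 425 on PH arrays. SPH and VPH arrays lay below all PH arrays, and TDPH overlapped PH. The difference of TDPH against VPH was 1.05 ± 0.14 (SE; adjusted p = 1.11e-05), or 0.98 with centred or quantile normalised arrays. Against PH it was -0.89 (adjusted p = 0.000139) in VPH and -0.64 (adjusted p = 0.00262) in SPH.

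**Figure D4:**
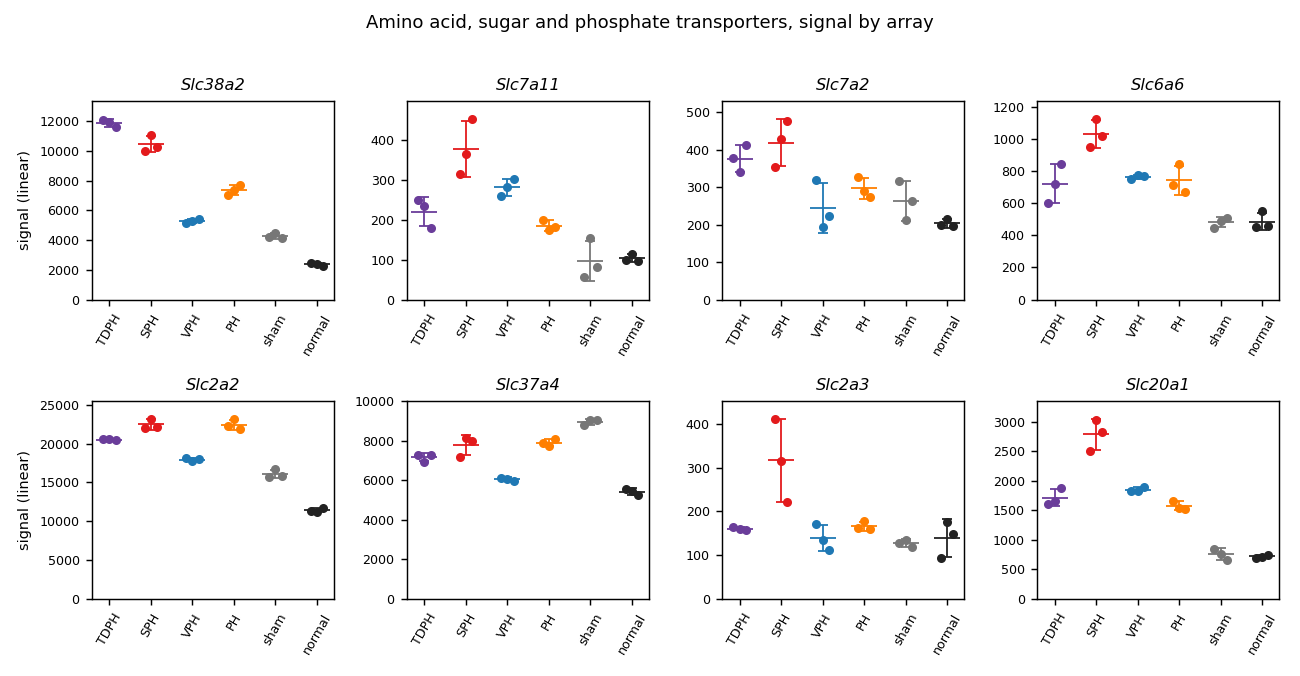
Signal (linear scale) of 8 amino acid, sugar and phosphate transporters on each array (points), with the group mean as a bar and the SD of 3 arrays as whiskers, in TDPH, SPH, VPH, PH, sham and normal liver from left to right. Slc38a2 separates all 6 groups, and Slc20a1 is above sham in every hepatectomised group, with the SPH arrays at 2497 to 3026.

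Among the carboxylate transporters, Slc13a3 was high after sympathectomy and low after total denervation, each with hepatectomy. Slc13a3 (NaDC3), a sodium-coupled carrier of succinate and other dicarboxylates, had signals of 1378, 1275 and 1183 on TDPH arrays, 3759.8, 4058 and 3777 on SPH arrays and 1736, 1652 and 1728 on VPH arrays. It had 1687, 2156 and 1656 on PH arrays, against 2677, 2853 and 2666 on sham arrays, and 1970.3, 2294 and 2095 on normal arrays. SPH lay above every other array and TDPH below every other array. Slc13a3 rose in SPH over PH by 1.08 ± 0.09 (SE; adjusted p = 1.26e-07) and in SPH over VPH by 1.17 ± 0.09 (SE; adjusted p = 1.12e-08), and fell in TDPH against SPH (-1.59 ± 0.09 SE, adjusted p = 4.49e-10). Leaving out any 1 array ended none of these 3 calls. TDPH against PH differed by -0.51 ± 0.09 (SE; adjusted p = 0.000284), PH against sham by -0.58 ± 0.09 (SE; adjusted p = 4.08e-05), and VPH overlapped PH.

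The Slc13a3 promoter is printed because the SPH arrays of this member lay above all others. The window (chr3:174623844-174624143, minus strand, GRCr8, RefSeq, 5′ to 3′ on the gene's strand) has the E-box CACGTG in capitals.
Slc13a3: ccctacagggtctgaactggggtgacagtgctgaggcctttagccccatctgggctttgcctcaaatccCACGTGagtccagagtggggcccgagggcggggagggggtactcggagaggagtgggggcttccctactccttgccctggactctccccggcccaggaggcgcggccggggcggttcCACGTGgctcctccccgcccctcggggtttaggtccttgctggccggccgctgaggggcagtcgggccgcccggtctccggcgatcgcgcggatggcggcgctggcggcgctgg
The motif occurred at 181 and 64 bases before the start. It was present in 6.42% of all windows, and in those of 17 of the 168 members. The other 3 motifs were searched on both strands. TGATGNAAN, the C/EBP-ATF response element of amino acid shortage, was in 3.97% of windows and in the members Slc35a2 and Slc7a1. TGCNCNC, looser than the core of the metal response element as N takes any base, was in 49.6% of windows and 104 members. AGAACA, an arm of the glucocorticoid response element, was in 20.7% of windows and 20 members. None of the 5 motifs contains another, and nothing about the factors follows from a match or its absence.

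Slc13a5 (NaCT), the citrate importer of hepatocytes, rose in sham over normal liver. Its signals were 1472, 1745 and 1213 on TDPH arrays, 1003, 2223 and 1760.4 on SPH arrays and 1695, 1989 and 1849 on VPH arrays. They were 1140.2, 1144 and 1127 on PH arrays, against 661, 531 and 539.7 on sham arrays, and 259, 206 and 294 on normal arrays. PH was above sham and sham above normal on every array. Sham against normal differed by 1.16 ± 0.20 (SE; adjusted p = 0.000257) and PH against sham by 0.97 ± 0.20 (SE; adjusted p = 0.0012), just under 2-fold. VPH against PH differed by 0.69 (adjusted p = 0.0269), and the SPH arrays ran across the range of the other hepatectomised groups.

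Slc16a1 (MCT1), which moves lactate and ketone bodies, had 6103, 6041 and 6277 on PH arrays, against 4577, 4757 and 5075 on sham arrays. Its difference was 0.35 (adjusted p = 5.01e-05) by its brightest probe set but -0.02 when both probe sets were averaged, so no direction is given. Slc16a6, of the same family and chosen after its values were seen, had 587, 518 and 476 on PH arrays, against 274, 316 and 288 on sham arrays, a difference of 0.82 ± 0.14 (SE; adjusted p = 0.000203). Of the 9 carboxylate transporters, 3 were higher and 1 lower in PH than in sham at an adjusted p under 0.05, with the same counts under both other scalings, and 3 were higher and none lower in SPH than in PH. The shares were 44.4% in PH against sham (22.4% of all probe sets) and 33.3% in SPH against PH (14.2% of all).

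Of the organic ion transporters, 3 of family 22 were called, each in 1 comparison. Slc22a5 (OCTN2), which takes up carnitine, fell after hepatectomy, and its signals were higher after vagotomy with hepatectomy than after hepatectomy alone. Its signals were 295, 315 and 327 on TDPH arrays, 256, 274 and 219.7 on SPH arrays and 436, 488 and 469.6 on VPH arrays. They were 269.9, 309.8 and 254 on PH arrays, against 714, 679 and 635 on sham arrays, and 432, 539 and 562 on normal arrays. The fall in PH was -1.25 ± 0.12 (SE; adjusted p = 2.58e-07), with no overlap and no call lost without any 1 array. VPH stood between PH and sham, above PH by 0.72 ± 0.12 (SE; adjusted p = 0.000488) and above SPH (SPH against VPH -0.87, adjusted p = 4.07e-05), while SPH and TDPH did not differ from PH at an adjusted p under 0.05.

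Slc22a8 (OAT3), an organic anion carrier, rose in sham over normal liver. It had 3169.7, 3242 and 3219 on VPH arrays and 5385, 5434 and 5508 on PH arrays. It had 4439.6, 4345 and 4258 on sham arrays, against 1735, 1851 and 1936 on normal arrays. Sham and normal were apart by 1.24 ± 0.24 (SE; adjusted p = 0.000798), and VPH was lower than PH by -0.76 (adjusted p = 0.0424). The SPH arrays of Slc22a8 (2610, 7794 and 6711) disagreed by more than any difference between groups after hepatectomy.

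Slc22a15, an orphan of the family, had dim signals of 64.8, 21.6 and 63.6 on sham arrays, against 129, 190.1 and 144 on normal arrays. The fall had an adjusted p of 0.0476 with means of 50 ± 24.6 in sham and 154 ± 31.7 in normal liver (SD, n = 3 arrays each), and leaving out any 1 of the 6 arrays ended the call. Of the 12 organic ion transporters, none were higher and 2 lower in PH than in sham at an adjusted p under 0.05 (1 and 1 centred), and 3 were higher and 2 lower in sham than in normal liver (3 and 1 centred, 2 and 3 by quantiles). The shares were 16.7% in PH against sham (22.4% of all probe sets) and 41.7% in sham against normal (16.8% of all).

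Vitamin and lysosomal carriers included the member that fell with vagotomy. Slc46a3, a lysosomal transporter of the folate carrier family, had signals of 1215, 1279 and 994 on TDPH arrays, 977, 1994 and 1498 on SPH arrays and 533, 462 and 472 on VPH arrays. It had 1161, 1143 and 1429 on PH arrays, against 1342, 1529 and 1534 on sham arrays, and 843, 811 and 879 on normal arrays. The VPH arrays were the lowest of all 18. The fall in VPH against PH was -1.32 ± 0.17 (SE; adjusted p = 1.96e-05), and the rises over VPH were 1.53 ± 0.17 (SE; adjusted p = 1.95e-06) in SPH and 1.22 ± 0.17 (SE; adjusted p = 2.44e-05) in TDPH. All 3 calls held when any 1 array was left out, and TDPH and SPH each overlapped PH.

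Slc19a2, a thiamine transporter, was also low after vagotomy. It had 4048, 5441 and 4658 on SPH arrays and 2041, 2440.5 and 2463 on VPH arrays, against 3617, 3581 and 3619 on PH arrays. VPH arrays lay below all others. The difference was -0.64 ± 0.09 (SE; adjusted p = 3.64e-05) for VPH against PH, and Slc19a2 rose in SPH over VPH by 1.02 ± 0.09 (SE; adjusted p = 7.29e-08), a call lost without SPH replicate 2 (0.91), without VPH replicate 1 and after quantile normalization (0.99). Slc23a2, a vitamin C carrier, rose in SPH over PH by 1.65 ± 0.49 (SE; adjusted p = 0.0299) at dim signals of 94.5, 139.5 and 152 on SPH arrays, against 40.1, 6.3 and 78.7 on PH arrays, and lost the call in 3 of 6 cases of leaving out 1 array. Its signal exceeded 100 on only 4 arrays, SPH replicates 2 and 3, sham replicate 2 and TDPH replicate 1. Without the SPH arrays Slc23a2 would have missed the minimum of 3 arrays and not been a member, so its selection was not independent of this call. Of these 20 members, none were higher and 5 lower in VPH than in PH at an adjusted p under 0.05, with the same counts under both other scalings. Their share was 25%, against 12% of all probe sets.

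**Figure D5:**
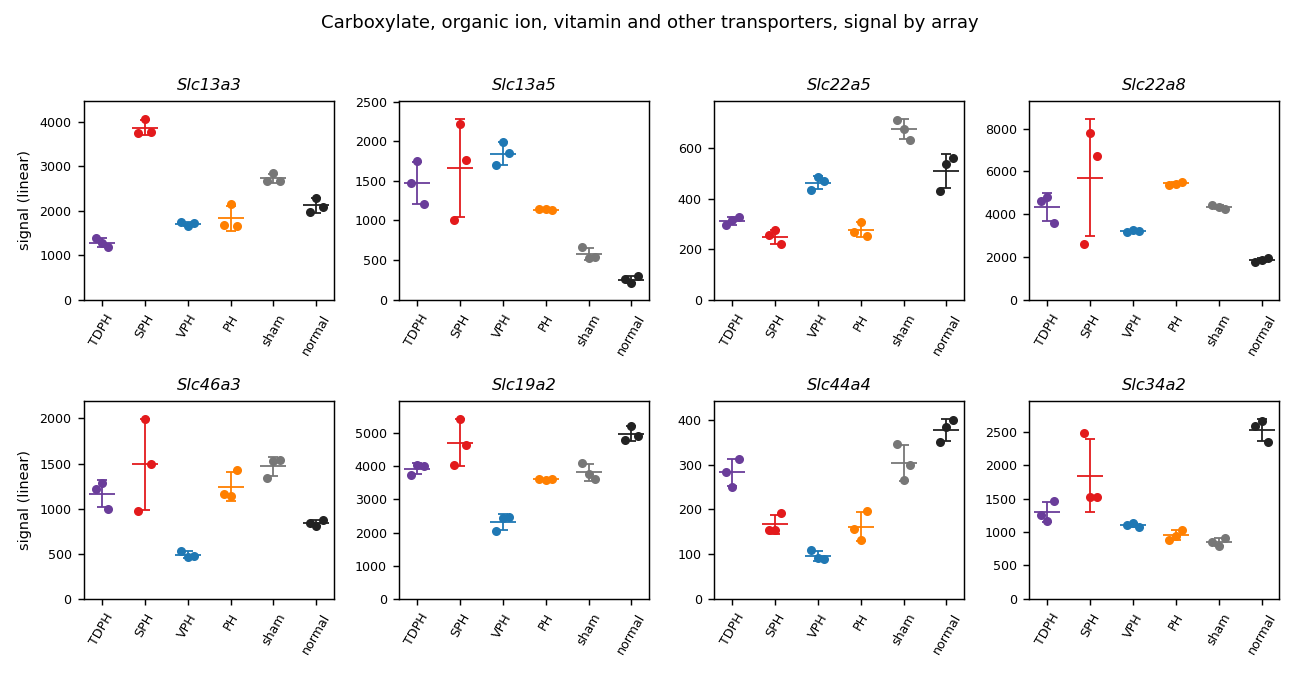
Signal (linear scale) of 8 carboxylate, organic ion, vitamin and other transporters on each array (points), with the group mean as a bar and the SD of 3 arrays as whiskers, in TDPH, SPH, VPH, PH, sham and normal liver from left to right. Slc13a3 is highest in SPH and lowest in TDPH, Slc46a3 and Slc19a2 are lowest in VPH, and the SPH arrays of Slc22a8 and Slc13a5 spread widely.

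Among the 8 carriers of fatty acids and other lipids, the choline transporter-like protein Slc44a4 differed between some of the groups. It had 284, 251 and 313 on TDPH arrays, 155, 154 and 191 on SPH arrays and 109, 91.4 and 89.1 on VPH arrays. It had 156, 133 and 196 on PH arrays, against 346, 266 and 300 on sham arrays, and 351, 384 and 399.9 on normal arrays. TDPH overlapped sham and lay above PH, and VPH was lowest. Slc44a4 rose in TDPH over VPH by 1.44 ± 0.17 (SE; adjusted p = 5.04e-06). The other differences were below 2-fold, 0.78 (adjusted p = 0.0033) for TDPH, -0.67 (adjusted p = 0.0144) for VPH, each against PH, and -0.87 (adjusted p = 0.000881) for PH against sham.

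The fatty acid transport proteins of hepatocytes were bright and nearly level. Slc27a2, which also activates very long-chain fatty acids, had 25371 to 27269 in TDPH, 30259.9 to 32407 in SPH, 25494 to 26064 in VPH, 26464 to 31014 in PH, 26866 to 28424 in sham and 23399 to 26284 in normal liver. Slc27a5, which activates bile acids for conjugation, had 26798 to 27982 in TDPH, 27386 to 31399.6 in SPH, 24506 to 24833 in VPH, 29184 to 29591 in PH, 29990.1 to 30303 in sham and 26455 to 27132 in normal liver. PH against sham differed by 0.02 (adjusted p = 0.826) for Slc27a2 and -0.04 (adjusted p = 0.572) for Slc27a5. Slc27a5 was lower in VPH than in PH by -0.25 (adjusted p = 0.000297).

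Among metal transporters, the iron carriers named here differed by less than 2-fold. Slc40a1 (ferroportin), the iron exporter of macrophages and hepatocytes, had signals of 3815, 3735 and 3705 on TDPH arrays, 3518, 3637 and 3825 on SPH arrays and 4345, 3953 and 3954 on VPH arrays. It had 2547, 2548 and 2746 on PH arrays, against 3492, 3611 and 3511 on sham arrays, and 4793, 5041 and 5202 on normal arrays. PH was below every other group, and the arrays of each cut lay within or above the sham range. The differences from PH were 0.52 ± 0.05 (SE; adjusted p = 1.24e-06) in TDPH, 0.48 ± 0.05 (SE; adjusted p = 3.84e-06) in SPH and 0.64 ± 0.05 (SE; adjusted p = 9.32e-08) in VPH. PH against sham differed by -0.44 ± 0.05 (SE; adjusted p = 3.60e-06) and sham against normal by -0.50 ± 0.05 (SE; adjusted p = 6.98e-07). All 3 cuts share the PH arrays as their comparator. The 2 further Slc40a1 probe sets gave -0.71 and -0.28 for PH against sham, and 0.43 and 0.58 for VPH against PH, but -0.13 and 0.49 for SPH and -0.01 and 0.50 for TDPH. The Kupffer cell marker sum was 19104 to 19971 in VPH, against 12722 to 13445 in PH, and its part was not tested.

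Slc39a14 (ZIP14), the importer of zinc, iron and manganese that inflammation induces in liver, had 9128, 8631 and 7540.4 on SPH arrays, against 6255, 5908 and 6150 on PH arrays. It had 5848, 5688 and 5537 on sham arrays, against 4109.5, 4122 and 4136 on normal arrays. Both pairs were separate, with differences of 0.46 ± 0.05 (SE; adjusted p = 9.18e-06) and 0.46 ± 0.05 (SE; adjusted p = 2.76e-06), and PH against sham differed by 0.10 (adjusted p = 0.2). Slc41a3, of a magnesium transporter family, rose in sham over normal liver by 1.22 ± 0.29 (SE; adjusted p = 0.00505), at signals of 190, 244 and 177 on sham arrays, against 68.8, 73.3 and 100.5 on normal arrays. It fell in SPH against VPH (-1.11 ± 0.29 SE, adjusted p = 0.00992), with 64.7, 66.7 and 152 on SPH arrays, against 179, 219.5 and 211 on VPH arrays, a call lost without SPH replicate 1 or 2. Of the 26 metal transporters, 2 were higher and 6 lower in PH than in sham at an adjusted p under 0.05, but 4 and 2 with centred arrays and 1 and 3 by quantiles. As deposited their share was 30.8%, against 22.4% of all probe sets.

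Genes related to the members but outside the symbol rule were followed in short lists. Of all probe sets, 4.36% changed in PH against sham and 3.02% in sham against normal. Against PH the share was 1.48% in SPH, 1.80% in VPH and 1.65% in TDPH. Between cuts it was 2.77% in SPH against VPH, 1.66% in TDPH against SPH and 2.82% in TDPH against VPH. Of 19 organic anion and ABC transporters of hepatocytes listed, 15 were measured. Abcc3, an efflux pump of the sinusoidal membrane, rose in PH over sham (1.01) and fell in sham against normal liver (-1.68), and the 14 others were not called in either comparison. In SPH against VPH only the prostaglandin transporter Slco2a1 rose (1.06) among the 15. In TDPH against SPH, Abcg5 (-1.17) and Abcg8 (-1.19), which together export sterols into bile, both fell, and Abcg5 fell in TDPH against VPH (-1.06). Of 12 regulators and targets of the amino acid response, 11 were measured, and in PH over sham Atf3 (3.24) and Trib3 (1.01) rose while Asns (-0.18), a classic target of the same response, was not called. Atf3 fell in sham against normal (-1.48), Chac1 rose over PH in SPH (1.18) and in TDPH (1.14), and Psat1 rose over PH in VPH (1.01). Chac1 also rose over VPH in SPH (1.13) and in TDPH (1.09). Of 9 metal response genes 6 were measured, and the metallothionein Mt2A rose in sham over normal liver (3.24) and the transferrin receptor Tfrc fell in TDPH against PH (-1.08).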

How the data were processed

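Per the labels' protocols, total RNA was isolated with Trizol and cleaned on RNeasy columns. The submitters' processing notes name GCOS 2.0. The deposited values are intensities, 1 signal per probe set (31099) and array on a linear scale. Trimmed by 2% at either end, each array's signals averaged 500, so the arrays had been scaled by the authors. The method of background subtraction and detection calls are not among the sources used here. A second deposited table gives the authors' log2 ratios per array pair, whose computation its headers do not state, used only as an alternative. Its 18 signal columns were not used, because the first VPH column equals no array of the value table.

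Signals were taken as log2(signal + 12) without further normalization, 12 being near their 10th percentile (11.9). After removal of 57 controls, a probe set was tested if it exceeded the 40th percentile of its array on 3 or more arrays (22103 probe sets). Group means over all 18 arrays were fitted with limma 3.58.1 in R 4.3.3 (lmFit, and eBayes with a trend in mean signal, 12 residual and 7.1 prior degrees of freedom) for 8 comparisons, each adjusted by Benjamini-Hochberg over all probe sets. The fit was tested on simulated data. Limma's model stands behind every adjusted p. The number of arrays limits the precision. Alternatives were a pseudocount of 90, centred or quantile normalised arrays, no filter, no trend, a replicate block, only the groups compared, averaged probe sets, 1.5-fold, the authors' ratios and leaving out each array.

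Members and gene lists (family groups, cell markers, organic anion and ABC transporters, amino acid and metal response genes) were chosen with earlier results of these data known. Named were up to 10 called members without overlap per direction in each comparison with sham, normal or PH, up to 5 between cuts, and a fixed set of 19 hepatic transporters, of which 1 is not reported here. Of the members, 196 matched RefSeq by current symbol, 2 by accession and 2 by synonym, and 49 have several probe sets. The probe set of Slc25a14 carries an accession that the reference gives to another gene. Promoters come from RefSeq (GRCr8).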

Additional observations from a re-analysis of the deposited data

How the results depend on the processing

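Counts of called members hung on the size asked for. At 1.5-fold they were 18 in PH against sham, 22 in sham against normal, 12 in SPH, 14 in VPH and 3 in TDPH against PH, 21 in SPH against VPH, 12 in TDPH against SPH and 12 in TDPH against VPH, out of 201. Of all 22103 probe sets, 936 were higher and 1501 lower at that size in PH against sham, and 538 and 1068 in sham against normal. Against PH they were 665 and 324 in SPH, 652 and 372 in VPH and 974 and 233 in TDPH. Between cuts they were 895 and 852 in SPH against VPH, 754 and 335 in TDPH against SPH and 1235 and 598 in TDPH against VPH. With a pseudocount of 90, which shrinks dim members, the counts of called members were 4 in sham against normal, 1 in SPH against PH, 1 in VPH against PH, 2 in SPH against VPH and 2 in TDPH against SPH. With only the groups compared in the fit, TDPH against SPH gave 1. Leaving out 1 array gave 5 to 9 members in PH against sham, 6 to 8 in sham against normal, 1 to 5 in SPH against PH, 1 to 3 in VPH against PH, 0 to 1 in TDPH against PH, 5 to 8 in SPH against VPH, 1 to 6 in TDPH against SPH and 4 to 6 in TDPH against VPH. SPH against PH gave 5 without SPH replicate 3 and 1 without PH replicate 2, and VPH against PH gave 1 without PH replicate 3. TDPH against PH gave 1 without PH replicate 3 or TDPH replicate 2. TDPH against SPH gave 1 without SPH replicate 2, TDPH replicate 1 or TDPH replicate 3, and 2 without TDPH replicate 2.

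Small differences with an adjusted p under 0.05 under at least 1 of the settings set side by side turned sign in 4 cases, Slc16a1 in PH against sham (-0.015, probe sets averaged) and, after quantile normalization, Slc27a5 in sham against normal (-0.009), Slc2a2 in TDPH against PH (0.022) and Slc37a4 in TDPH against PH (0.007). The causes were not tested. Of the 122 differences of named members, the authors' deposited table moved 44 by more than the spread between arrays, and no called difference turned sign. By that table Slc25a29 stood at 1.19 in PH against sham, Slc13a3 at 0.77 in SPH against PH and Slc25a4 at 0.54 in VPH against PH. Its VPH ratios may rest on other signals than those used here, since its first VPH signal column equals none of these arrays.

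The replicate number as a block gave the same counts as without it, 6 in PH against sham, 7 in sham against normal, 2 in SPH against PH and 0 in TDPH against PH among them. Arrays of the same number did not deviate together (median correlation 0.006, highest 0.058, over 45 pairs), so no pairing by number was seen. The dim members Slc22a15, Slc23a2, Slc7a10, Slc6a7 and Slc2a6 lost calls most often when arrays were left out.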

Other observations

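Further members past 1.5-fold at an adjusted p under 0.05, chosen after their values were seen, concerned nucleosides and organelle carriers. Slc28a2, a concentrative purine nucleoside transporter, had 5513, 4834 and 6124 on SPH arrays and 5496, 5778 and 5591 on VPH arrays, against 3375, 3629 and 3434 on PH arrays, with differences of 0.65 (adjusted p = 3.12e-06) in SPH and 0.69 (adjusted p = 1.03e-06) in VPH. Slc29a3, a lysosomal nucleoside transporter, had 146, 143 and 173 on PH arrays, against 272, 312 and 309 on sham arrays, a difference of -0.90 (adjusted p = 0.0041). Slc17a3, a phosphate and urate carrier, was the 1 member lower in TDPH than in PH by that measure, at 2368, 2263 and 2279.9 on TDPH arrays, against 3726, 3622 and 3591 on PH arrays (-0.66, adjusted p = 2.73e-05).

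Some mitochondrial carriers differed after 1 kind of operation at sizes below 2-fold. Slc25a21, a carrier of oxoadipate and other oxodicarboxylates, differed by 0.67 (adjusted p = 0.00196) in sham against normal and by -0.67 (adjusted p = 0.00179) in PH against sham. Slc25a24, an ATP-magnesium and phosphate carrier like Slc25a25, differed by -0.76 (adjusted p = 0.000719) in sham against normal. Slc25a36, a pyrimidine nucleotide carrier, had 324, 349.7 and 316 on VPH arrays, against 206, 143 and 244 on PH arrays (0.74, adjusted p = 0.00633). Slc25a41, another ATP-magnesium and phosphate carrier, had 51.2, 82.1 and 97.3 on SPH arrays, against 162, 146 and 132 on PH arrays (-0.87, adjusted p = 0.0289).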
